A study of Mus musculus with 6 samples.

Results

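The 10 genes for secreted cytokines and growth factors described here were chosen by name: Il4, Il13, Il6, Osm, Csf1, Tnfsf13b, Tgfb1, Hgf, Vegfa and Areg. All 10 were found among the 55401 gene rows of the count table. They were read in 6 libraries of mouse blood cells sorted as basophils (live CD45+ Lin- CD49b+ cells carrying FcεRIα or IgE) from WT mice, 3 in set B and 3 in set A. The protocol put 2 nmol of MC903, a vitamin D analogue that causes a dermatitis like atopic eczema, in 10 µL of ethanol on both ears from day 0 to day 6, and ethanol alone on control mice. The labels do not say which set received which, nor the age of the mice or whether a library came from 1 animal. Their protocol mentions pooled RNA without saying what was pooled. The design text names ear skin as the source, where the library labels name blood. Every difference below is therefore set B relative to set A, and a p-value reflects no more than how these libraries vary, possibly for technical reasons.

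Cytokines are small proteins that cells release to act on others through surface receptors. Basophils are best known for interleukin 4 (Il4) and interleukin 13 (Il13), the type 2 cytokines that drive IgE production and allergic inflammation and that are induced when IgE receptors are crosslinked. Their genes lie side by side on chromosome 11, and their receptors share the Il4ra chain. Interleukin 6 (Il6) and oncostatin M (Osm) belong to the family that signals through gp130, Tnfsf13b is the B cell survival factor BAFF, and Csf1 is the growth factor of macrophages. Hgf, Vegfa, Areg and Tgfb1 act in tissue repair, on epithelium, blood vessels and immune cells.

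The label of the cells did not hold equally in the sets. Summed over 8 basophil markers, among them Mcpt8, Prss34, Fcer1a and Cpa3, the level was 2481, 1618 and 1075 CPM (the count as a share of all counts in its library, scaled up by 1000000) in B replicates 1, 2 and 3, against 1.63, 56.0 and 3.23 CPM in A replicates 1, 2 and 3. Fcer1a itself, the IgE-binding chain used in the sort, had 10736, 5584 and 2681 counts in B and 4, 0 and 0 in A. Of the 8 markers 7 had the higher mean in B, while Il3ra had it in A (3.11 CPM in B, 14.6 CPM in A). Ms4a2 overlapped between the sets (19.1, 20.7 and 1.02 CPM in B, 0, 11.9 and 0 CPM in A). Itga2 was at 14.0, 31.9 and 0 CPM in B and at 0 in A. In A replicate 2 most of the sum was Il3ra, at 42.9 CPM. The sum of 12 neutrophil markers was 12520 to 23293 CPM in set B and 2400 to 9713 CPM in set A, also without overlap. Sums of the monocyte and macrophage, T cell, platelet and erythroid lists lay lower in B, without overlap (22975 to 30680 against 32630 to 40067 CPM, 213 to 375 against 481 to 1135, 547 to 929 against 1293 to 1459, and 65.2 to 149 against 199 to 432, B before A). The monocyte and macrophage sum was mostly Lyz2, a lysozyme that neutrophils also make. Without Lyz2 it overlapped (461, 375 and 934 CPM in B replicates 1, 2 and 3, against 312, 415 and 615 CPM in A replicates 1, 2 and 3). In that list 6 of 9 markers had the higher mean in B. The erythroid sum also overlapped without Hba-a1 (4.28 to 5.80 CPM in B replicates, against 1.60 to 133 CPM in A replicates). Each of the other 4 sums kept its separation without its most abundant marker. The B cell (3555 to 4771 against 2936 to 4653 CPM), NK cell (524 to 920 against 477 to 1035) and dendritic cell sums (1.33 to 95.8 against 1.31 to 244) overlapped between the sets, as did those of eosinophils, mast cells, ILC2 and keratinocytes, each at most 117 CPM. Each of the 6 separations of whole lists has a 2-sided exact permutation p of 0.1, the smallest that 3 libraries against 3 can give. Among defining markers of further cells, Kit and Mcpt4 (mast cells), Epx and Prg2 (eosinophils), Il1rl1 (ILC2) and Krt5, Krt14 and Krt1 (keratinocytes) had 0 counts throughout. Other markers of those lists were present in some libraries. Cma1 was at 78.0, 0.135 and 30.6 CPM in B replicates 1, 2 and 3, against 99.0, 0.0757 and 116.6 CPM in A replicates 1, 2 and 3. Siglecf reached 66.2 CPM in B replicate 1, Rora 51.8 and Klrg1 65.1 CPM in B replicate 2, and Krt10 45.3 CPM in B replicate 1 and 38.8 CPM in A replicate 2. The sum of the ILC2 list, Rora and Klrg1 among it, was 0.161, 117 and 13.8 CPM in B replicates 1, 2 and 3. It was 13.1, 0.0757 and 69.6 CPM in A replicates 1, 2 and 3. In sorted bulk samples fewer cells of a type and less RNA per cell cannot be told apart. The part of these markers in the differences below was not tested.

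**Figure D1:**
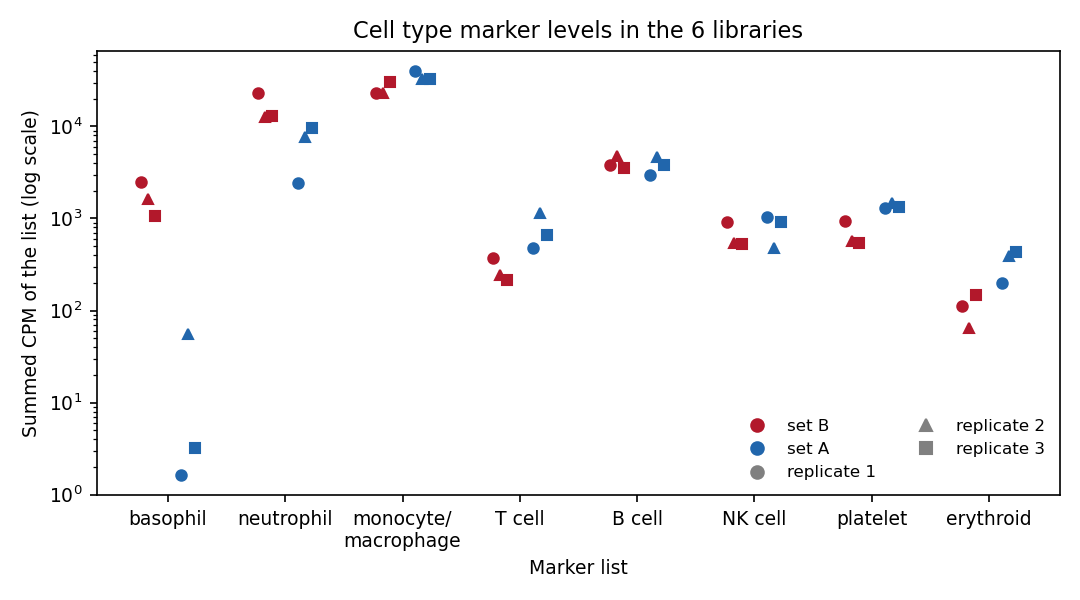
Summed CPM (log scale) of 8 cell type marker lists in each library, with colour for the set and symbol for the replicate. Basophil and neutrophil sums are higher in every B library, and monocyte and macrophage, T cell, platelet and erythroid sums are higher in every A library. The monocyte and macrophage and the erythroid sums overlap between the sets without Lyz2 and Hba-a1, their most abundant markers.

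Of the 60 values that 10 genes give in 6 libraries, 33 were 0, another 10 lay between 1 and 50 counts, and 17 were above 50 counts. The same 17 values were those above 1 CPM. Library totals were 49742321 to 63956911 counts in B and 46137963 to 55116567 in A. A count of 0 allows a level of up to 3 counts, which is 0.0469 to 0.0603 CPM in set B and 0.0544 to 0.0650 CPM in set A (counting error only, since amplified copies were not marked). Of the 10 genes, 6 passed 1 CPM in at least 1 library, and 0 did so in every library. In B replicates 1, 2 and 3, 4, 4 and 5 of the 10 exceeded 1 CPM, against 1, 2 and 1 in A replicates 1, 2 and 3. The share of all genes over 1 CPM in each library was not counted. At the looser threshold of any count, 6, 6 and 6 of the 10 had one in B replicates 1, 2 and 3, against 2, 4 and 3 in A replicates 1, 2 and 3. All genes with a count numbered 11141, 12176 and 14066 in these B libraries and 9242, 9845 and 11281 in these A libraries, of 55401 rows. On and off values of this kind were usual at these levels. Over all genes, 92.3% of those with a mean of 10 to 30 CPM and 71.6% of those with 30 to 100 CPM had a library under 1 CPM, against 20.0% at 100 to 300 CPM.

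**Figure D2:**
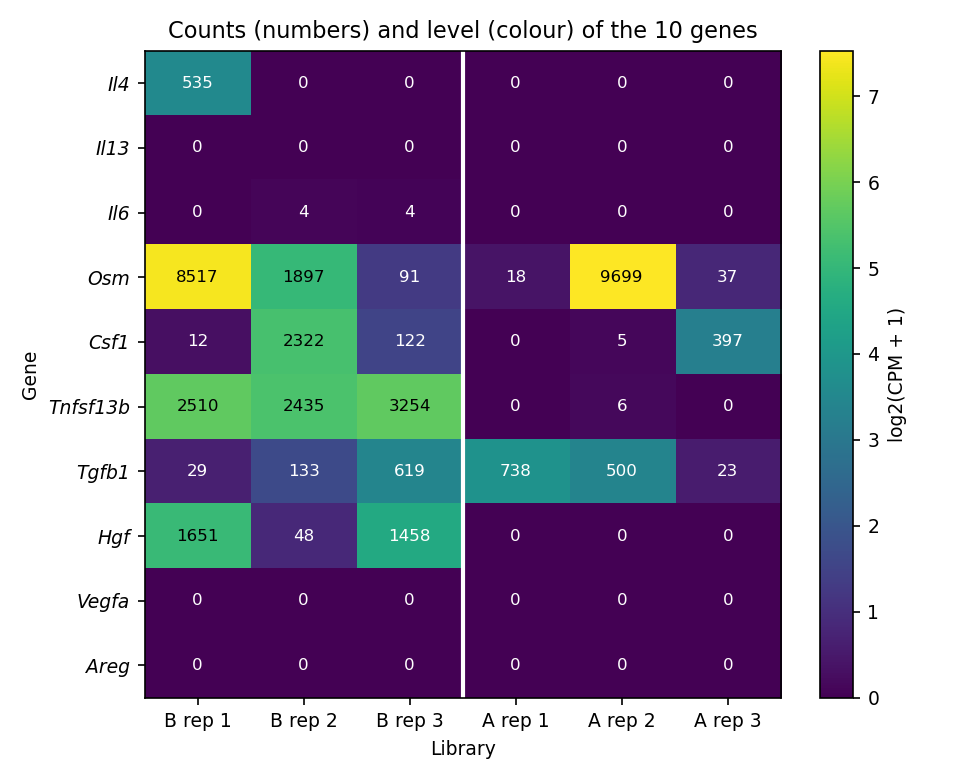
Counts (printed) and level as log2(CPM + 1) (colour) of the 10 genes in the 3 libraries of set B and the 3 of set A. Tnfsf13b is high in every B library, Hgf has counts in B and 0 in A, and Osm, Csf1 and Tgfb1 are high in some libraries of each set and low in others.

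Promoters are shown for Tnfsf13b and Hgf, whose values did not overlap between the sets, and for Il4, whose counts came from 1 library. They are the most upstream start listed by RefSeq for each gene (GRCm38.p6), with 250 bases before the start and 50 after it. Capitals mark matches, on either strand, to AGATAA (letters read by GATA factors), TGGAAA (NFAT), TTCNNNGAA (several STAT factors), TTCNNNNGAA (STAT6) or TATAAA (bound by TBP at core promoters). The windows are chr8:10006217-10006516 on the plus strand, chr5:16553245-16553544 on the plus strand and chr11:53618616-53618915 on the minus strand.
Tnfsf13b: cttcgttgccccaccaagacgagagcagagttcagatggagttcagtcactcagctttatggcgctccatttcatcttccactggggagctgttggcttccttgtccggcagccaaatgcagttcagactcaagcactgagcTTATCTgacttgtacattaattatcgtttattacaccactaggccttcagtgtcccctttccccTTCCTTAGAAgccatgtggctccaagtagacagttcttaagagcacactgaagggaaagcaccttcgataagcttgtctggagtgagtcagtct
Hgf: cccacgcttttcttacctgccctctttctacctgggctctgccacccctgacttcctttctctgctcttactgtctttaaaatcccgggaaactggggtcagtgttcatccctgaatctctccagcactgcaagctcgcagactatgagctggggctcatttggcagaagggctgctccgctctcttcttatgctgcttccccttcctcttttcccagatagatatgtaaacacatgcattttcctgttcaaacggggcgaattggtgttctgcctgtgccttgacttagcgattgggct
Il4: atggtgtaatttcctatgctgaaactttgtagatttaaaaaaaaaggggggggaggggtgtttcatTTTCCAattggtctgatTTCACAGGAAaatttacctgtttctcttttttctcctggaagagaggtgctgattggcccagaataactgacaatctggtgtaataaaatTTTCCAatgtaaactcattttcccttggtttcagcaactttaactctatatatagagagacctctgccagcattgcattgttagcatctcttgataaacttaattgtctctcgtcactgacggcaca
The Tnfsf13b window held AGATAA on the reverse strand from base -108 and TTCNNNNGAA from base -44, counted from the start. The Il4 window held TTCNNNNGAA from base -167 and TGGAAA on the reverse strand from bases -184 and -77. The Hgf window held 0 of the 5 motifs, and no matches overlapped in these 3 windows. TTCNNNNGAA stood in 7% of 27025 promoters of this length, AGATAA in 11.4%, TGGAAA in 21.5%, TTCNNNGAA in 8.42% and TATAAA in 14.2%. Windows were found for 9 of the 10 genes, and TGGAAA was in 4 of them (Il4, Il13, Il6 and Vegfa). AGATAA was in 3 of the 9 windows (Tnfsf13b, Il13 from base -81 and Vegfa from base -182). The matches are letters only and say nothing of binding.

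Il4 (ENSMUSG00000000869, chromosome 11) had 535 counts in B replicate 1, against 0 in each other library, a level of 10.8 CPM there. B replicate 1 was also the library with the highest sums of basophil (2481 CPM), neutrophil (23293 CPM), eosinophil (70.0 CPM) and keratinocyte markers (45.3 CPM). The part of these markers in the Il4 counts was not tested. A value over 10 CPM in exactly 1 library with under 1 CPM in the other 5 was found for 1796 of 18179 genes with a count (9.88%), 351 of them with B replicate 1 as the high library (1.93%). Il13 (ENSMUSG00000020383), the neighbour of Il4, had 0 counts in all 6 libraries, B replicate 1 included. Il6 (ENSMUSG00000025746, chromosome 5) had 4 counts each in B replicate 2 and B replicate 3, and 0 in the remaining libraries, close to the 3 counts that a value of 0 allows. None of these 3 interleukins had enough libraries with counts to be tested.

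Tnfsf13b (ENSMUSG00000031497, chromosome 8) was at 50.5, 41.2 and 50.9 CPM in B replicates 1, 2 and 3, against 0, 0.113 and 0 CPM in A replicates 1, 2 and 3. These are 2510, 2435 and 3254 counts in B and 0, 6 and 0 in A, so the sets did not overlap and the B libraries lay close together (47.5 ± 5.48 CPM in set B, 0.0378 ± 0.0655 CPM in set A, SD, n = 3 each). The fitted difference was 10.13 on the log2 scale (SE 3.09), higher in 3 of 3 B libraries, and it did not pass over all 9196 genes tested (edgeR's adjusted p = 0.508, quasi-likelihood test). DESeq2 (10.08, adjusted p = 6.93e-06) and limma-voom (10.95, adjusted p = 0.0288) called it higher in B. DESeq2 called 5.91% of the 8314 genes with an adjusted p higher, and limma-voom 2.12% of 9196. By limma-voom the median over all genes was itself 0.87. Tnfsf13b entered the fit through set B alone. The size rests on the 6 counts of A replicate 2: without that library the fitted value was 14.31 (adjusted p = 0.571 by edgeR). Over 10 CPM in all 3 B libraries with under 1 CPM in all 3 A libraries was seen for 173 of 18179 genes (0.952%), and the opposite pattern for 5 genes (0.0275%).

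Hgf (ENSMUSG00000028864, chromosome 5), the hepatocyte growth factor that acts through the receptor Met, was at 33.2, 0.812 and 22.8 CPM in B replicates 1, 2 and 3, against 0 CPM in all 3 A libraries. The counts were 1651, 48 and 1458 in B and 0 in A. The sets did not overlap, but B replicate 2 lay far below the other B libraries (18.9 ± 16.5 CPM in set B, SD, n = 3). Against the limit of 3 counts per A library, which covers counting error only, the B mean was at least 322-fold higher, or 8.33 on the log2 scale. The bound was 201-fold without B replicate 1, 477-fold without B replicate 2 and 289-fold without B replicate 3, and 13.8-fold for B replicate 2 alone. The adjusted p was 0.508 by edgeR, 6.86e-06 by DESeq2 and 0.106 by limma-voom. Hgf entered the fit through set B alone, and DESeq2 called 5.91% of the 8314 genes with an adjusted p higher. With A at 0 the counts bound the size from below only, and edgeR's fitted value depends on its prior count. Counts in all 3 B libraries with 0 in all 3 A libraries occurred in 267 of 18179 genes (1.47%).

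Of the 10 genes 5 passed the filter on low counts, while Il4 and Il6 did not and Il13, Vegfa and Areg had no count. Tnfsf13b and Hgf entered the fit through set B alone. In edgeR's quasi-likelihood test 0 of the 5 genes that could be tested passed in either direction, where 2 of all 9196 passed as higher (0.0217%) and 0 as lower (0%). Without adjustment, edgeR's p was under 0.05 for Tnfsf13b and Hgf, both higher, beside 5.05% of all genes tested higher and 1.32% lower. DESeq2 gave an adjusted p to 4 of them (not to Csf1) and called these 2 higher, beside 5.91% of the 8314 genes to which it gave one, and 0 lower (1.25%). Limma-voom called 1 of the 5, beside 2.12%, and 0 lower (0.0761%). Nonoverlap with B higher held for 2 of the 10 genes. These are 2 of the 7 with a count, beside 6.41% of all genes with a count, and 2 of the 5 tested, beside 10.2%. Nonoverlap with B lower held for 0 of the 7 with a count, beside 2.34% of all genes with a count.

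**Figure D3:**
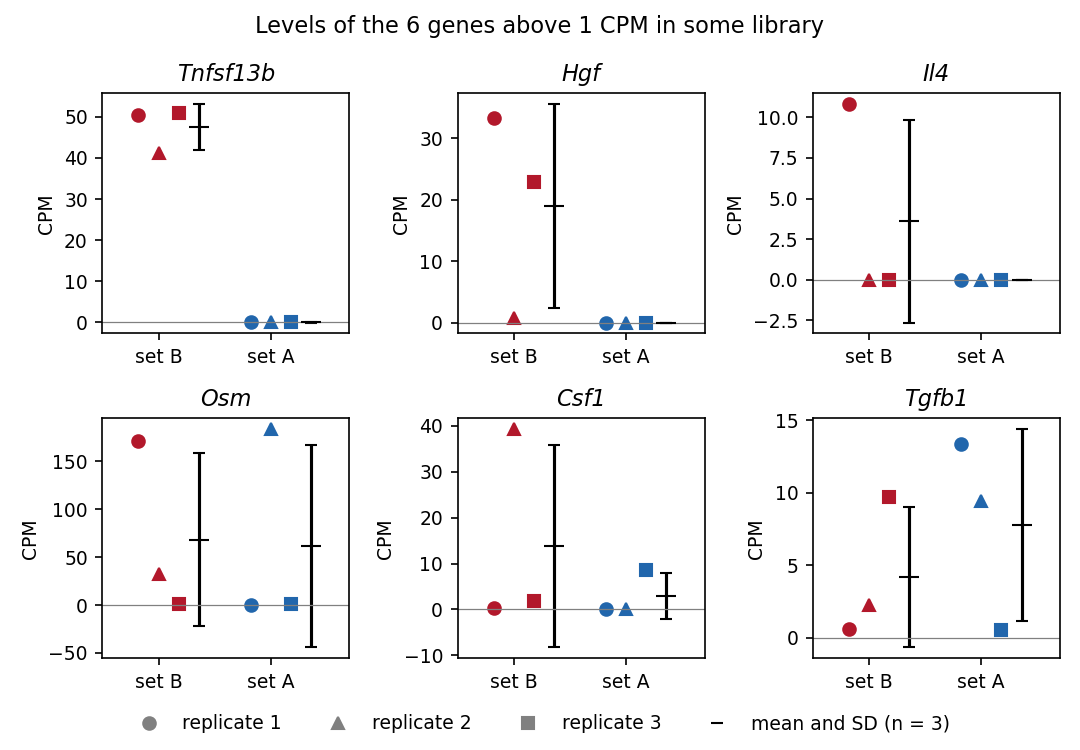
CPM per library of the 6 genes above 1 CPM in some library, set B left of set A in each panel, with symbols for replicates and the mean and SD (n = 3) in black. Tnfsf13b and Hgf separate the sets, Il4 is above 0 in 1 library, and Osm, Csf1 and Tgfb1 overlap. Error bars that reach below 0 reflect the spread between libraries.

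Osm (ENSMUSG00000058755, chromosome 11), which acts through gp130 with Osmr or Lifr, was at 171.2, 32.1 and 1.42 CPM in B replicates 1, 2 and 3, against 0.327, 183.5 and 0.802 CPM in A replicates 1, 2 and 3. One library in each set was above 100 CPM and the sets overlapped throughout. The fitted log2 difference was 0.05 (SE 2.44, adjusted p = 1.00 by edgeR). It changed sign when B replicate 1 (-2.04), A replicate 1 (-0.53) or A replicate 3 (-0.52) was left out, and was 6.87 with A replicate 2 left out.

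Csf1 (ENSMUSG00000014599, chromosome 3) was at 0.241, 39.3 and 1.91 CPM in B replicates 1, 2 and 3, against 0, 0.0946 and 8.60 CPM in A replicates 1, 2 and 3. Its highest value was in B replicate 2 and its second in A replicate 3, and the sets overlapped. The fitted log2 difference was 2.21 (SE 3, adjusted p = 1.00 by edgeR), and it was -1.39 without B replicate 2, 8 without A replicate 3 and 1.61 to 2.78 without any one of the other 4 libraries.

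Tgfb1 (ENSMUSG00000002603, chromosome 7), stored as a latent complex that has to be activated outside the cell, was at 0.583, 2.25 and 9.68 CPM in B replicates 1, 2 and 3, against 13.4, 9.46 and 0.499 CPM in A replicates 1, 2 and 3. Each set held at least 1 library under 1 CPM and 1 above 9 CPM. The fitted log2 difference was -1.03 (SE 1.9, adjusted p = 1.00 by edgeR). With single libraries left out it ran from -2.58 (B replicate 3) to -0.35 (A replicate 1).

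**Figure D4:**
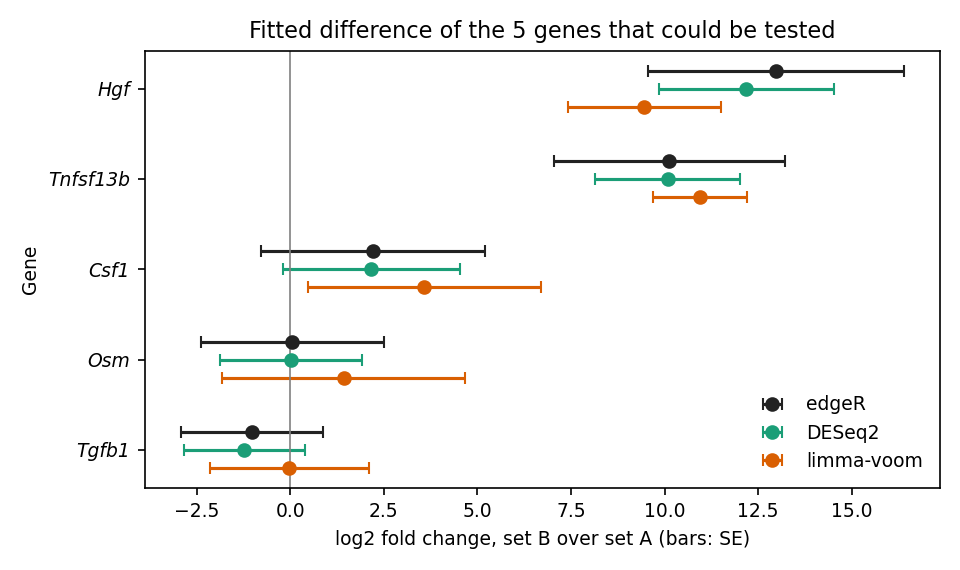
Fitted log2 fold change of set B over set A with its SE for the 5 genes that could be tested, by edgeR, DESeq2 and limma-voom. Hgf and Tnfsf13b lie between 9.46 and 12.98 by every tool, where Csf1, Osm and Tgfb1 lie between -1.23 and 3.58. With A at 0 the counts of Hgf bound its size from below only, and edgeR's fitted value depends on its prior count.

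Vegfa (ENSMUSG00000023951, chromosome 17), the main growth factor of blood vessels, and Areg (ENSMUSG00000029378, chromosome 5), a ligand of the EGF receptor, had 0 counts in all 6 libraries, like Il13. At these totals, and by counting error alone, that limits each of the 3 genes to 0.0469 to 0.0650 CPM per library.

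Levels of different genes were compared within a library after division by exon length (GENCODE M21, which need not be the authors' annotation). Osm led in B replicate 1 at 75.4 CPM per kb of exon, followed by Il4 at 8.77, Tnfsf13b at 7.35 and Hgf at 4.62. The short Il4 transcript thus stood beside Tnfsf13b on this scale. Osm also led in B replicate 2 (14.1 CPM per kb, Csf1 next at 7.44) and in A replicate 2 (80.8, Tgfb1 next at 1.88). Tnfsf13b led in B replicate 3 at 7.41 CPM per kb, Tgfb1 in A replicate 1 at 2.66 and Csf1 in A replicate 3 at 1.63. The leading gene thus differed between libraries of the same set.

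Over the 6 libraries, the genes nearest to each of the 5 by Euclidean distance in log2(CPM + 1) were sought among all genes with a count. Zfp524, a zinc finger protein, was nearest to Tnfsf13b at a distance of 0.446, with 44.4, 45.8 and 57.3 CPM in set B and 0.145, 0 and 0.173 CPM in set A, followed by Tbc1d20 at 0.469. For Hgf they were Srgap2 (0.552) and Rnd1 (0.702), regulators of the actin skeleton. Srgap2 was likewise low in B replicate 2 (33.6, 0.254 and 23.5 CPM in set B, at most 0.0726 in A). For Csf1 they were Calcrl (0.733), the receptor chain for CGRP and adrenomedullin, and Sap130 (0.804). Osm and Tgfb1 had no close match, with F3, tissue factor, at 2.08 and Rab3ip at 2.18 for Osm, and the pseudogene Rps6-ps3 at 1.43 and Kmt5c at 1.65 for Tgfb1. Reads of Rps6-ps3 may belong to its parent gene.

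Receptors for the 10 proteins were read from a list of 22, of which 20 had a count and 11 could be tested, with 0 higher and 0 lower by edgeR's quasi-likelihood test over all genes. DESeq2 called 1 higher and 1 lower. Lifr, a receptor chain for leukaemia inhibitory factor that also binds oncostatin M, was at 74.9, 45.4 and 23.8 CPM in set B and 0.0726, 0 and 0 CPM in set A. Its log2 difference was 10.61 (SE 3.09, adjusted p = 0.508 by edgeR, 2.25e-06 by DESeq2 and 0.0320 by limma-voom), and 14.33 without A replicate 1, the A library with its 4 counts. Like Tnfsf13b and Hgf, Lifr entered the fit through set B alone. Osmr, the specific oncostatin M receptor, was at 13.5 CPM in A replicate 3 and at 0 elsewhere, and Il6st (gp130) reached 1.67 CPM at most, in B replicate 3. Il2rg, the common gamma chain used by the interleukin 4 receptor, was at 544.5, 1127.1 and 1145.4 CPM in set B and 1444.0, 2163.5 and 1240.6 CPM in set A (log2 difference -0.89, SE 0.36, adjusted p = 0.769 by edgeR and 0.0251 by DESeq2). Il4ra was at 51.1 CPM in B replicate 3 and 169.8 CPM in A replicate 2, and under 0.2 CPM in the other 4 libraries. Tgfbr2, which binds Tgfb1, was at 75.5, 0.558 and 21.1 CPM in B replicates 1, 2 and 3, against 62.8, 146.7 and 45.4 CPM in A replicates 1, 2 and 3 (log2 difference -1.49, SE 1.65, adjusted p = 1.00 by edgeR). Met, the receptor of Hgf, was at 54.4 CPM in A replicate 2 and at most 0.118 CPM elsewhere. Tnfrsf13b (TACI), one of the BAFF receptors, was at 176.8 ± 24.7 CPM in set B and 168.8 ± 39.5 CPM in set A (SD, n = 3 each). Tnfrsf13c, a further BAFF receptor, was uneven, at 0.442, 182.1 and 65.1 CPM in set B and 0.254, 83.2 and 82.9 CPM in set A. The list's median log2 difference was -0.50, beside -0.06 over all genes tested.

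Of 20 genes for release and activation of these proteins, 12 had a count and 8 could be tested, with 0 calls by edgeR and a median of -0.58. Plau, the urokinase that can activate pro-HGF, had 13, 103 and 16 counts in B and 0 in A, which is 0.261, 1.74 and 0.250 CPM in B (adjusted p = 0.508 by edgeR, 2.11e-05 by DESeq2 and 0.197 by limma-voom). Like Lifr, Plau entered the fit through set B alone. Hgfac, the dedicated HGF activator, had 0 counts in all 6 libraries. Adam17, which sheds membrane-bound growth factors and cytokines such as Areg, was at 0, 59.9 and 28.6 CPM in set B and 0 in A. Nrros, which holds latent Tgfb1 on myeloid cells, was high in all libraries (455.6 ± 94.3 CPM in set B, 650.7 ± 79.6 CPM in set A, SD, n = 3 each, adjusted p = 0.834 by edgeR). Thbs1, which can activate latent Tgfb1, was at 45.6, 34.9 and 23.1 CPM in set B and 0.127, 0.0757 and 10.9 CPM in set A (log2 difference 3.20, SE 2.39, adjusted p = 1.00 by edgeR).

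Among 42 other interleukins, TNF family ligands and colony-stimulating factors, 24 had a count, 12 could be tested and 0 passed by edgeR, DESeq2 or limma-voom. Their median log2 difference was 0.34. The closest to the threshold were Tnfsf9 (4-1BB ligand), Tnf and Mif. Tnfsf9 was at 0.362, 26.9 and 0.188 CPM in set B and 0.145, 0 and 0.303 CPM in set A, so B replicate 2 alone was high. Tnf was at 2.03, 2.13 and 12.0 CPM in set B and 125.4, 0.662 and 56.3 CPM in set A. Mif, a macrophage inhibitory factor, was at 157.2 ± 116.9 CPM in set B and 99.1 ± 40.8 CPM in set A (SD, n = 3 each). Il1b, interleukin 1 beta, was above 100 CPM in every library, at 885.4, 508.9 and 391.0 CPM in set B and 287.7, 148.7 and 858.6 CPM in set A.

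Of 28 other growth factors, 14 had a count, 7 could be tested and 0 passed by the 3 tools, with a median log2 difference of -0.39. Grn, progranulin, was at 511.7, 411.2 and 238.0 CPM in set B and 141.6, 360.8 and 224.5 CPM in set A (adjusted p = 1.00 by edgeR). Flt3l, a growth factor of dendritic cells, was at 17.7, 13.3 and 24.3 CPM in set B and 0.871, 79.8 and 146.1 CPM in set A, and Gdf15 stayed under 1 CPM in all 6 libraries.

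Transcription factors that act on cytokine genes (23, of which 18 could be tested) gave 0 calls by the 3 tools and a median log2 difference of -0.23. Gata2, which maintains basophils and binds the Il4 locus in mice, was at 42.8, 1.15 and 24.8 CPM in set B and 0.109, 45.6 and 115.8 CPM in set A. Cebpb, a factor of myeloid cytokine genes, was even over the libraries (1093 ± 171.7 CPM in set B, 1056 ± 146.8 CPM in set A, SD, n = 3 each). Maf was at 172.7 CPM in A replicate 2 and at most 1.47 CPM elsewhere, and its log2 difference of -6.22 (adjusted p = 1.00 by edgeR) was 2.30 without that library. Stat3, the factor below gp130, was at 88.4 ± 27.3 CPM in set B and 165.3 ± 54.4 CPM in set A (SD, n = 3 each, log2 difference -0.99, adjusted p = 1.00 by edgeR). Fos, a rapidly induced AP-1 subunit, averaged 643.4 ± 135.4 CPM in set B and 790.5 ± 251.9 CPM in set A (SD, n = 3 each).

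Genes known to respond to these cytokines (19, of which 10 could be tested) also gave 0 calls by edgeR, with a median of 0.96. Chil3, a chitinase-like protein induced by interleukin 4 in mouse macrophages and also made by neutrophils, was at 711.6, 555.2 and 591.5 CPM in set B and 38.7, 1.02 and 71.6 CPM in set A, with no overlap (log2 difference 3.98, SE 1.28, adjusted p = 0.508 by edgeR, 0.0276 by DESeq2 and 0.311 by limma-voom). The basophil and neutrophil marker sums given above separated the same libraries. Within set A the Chil3 level was lowest in replicate 2, whose neutrophil sum of 7640 CPM lay between those of replicates 1 (2400) and 3 (9713). The part of these markers in the Chil3 difference was not tested. Skil, a feedback gene of the Tgfb1 pathway, was at 24.3, 83.2 and 5.63 CPM in set B and 0.200, 0.378 and 3.40 CPM in set A (adjusted p = 0.980 by edgeR). Tgfbi, which Tgfb1 induces, was at 132.3 ± 39.1 CPM in set B and 190.7 ± 59.1 CPM in set A (SD, n = 3 each, adjusted p = 1.00 by edgeR).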

How the data were processed

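The measurement was bulk RNA-seq of 6 sorted libraries by Smart-seq2 with paired reads of 150 bases, per the labels' protocols. The authors deposited raw counts per Ensembl gene, 1 column per library. The tools named in the submitters' processing notes are DESeq2, HISAT2 2.2.1 and cutadapt 1.9. How strand was used, which program counted, and the build and annotation were not stated in the labels or files. Reads shared by related or overlapping genes may therefore be split in unknown ways. Symbols were matched for 55141 of 55401 identifiers, the 10 members among them.

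CPM is count over library total. The difference of B over A was fitted on all genes with edgeR 4.0.16 in R 4.3.3 (filterByExpr, TMM, glmQLFit with robust=TRUE, glmQLFTest), with Benjamini-Hochberg adjustment over 9196 genes and a threshold of 0.05. The SE is the absolute log2 fold change over the square root of F. The script was tested on simulated data. Other settings were RLE, library size alone, 2 filters, DESeq2 1.42.0, limma-voom 3.58.1 with sample weights, robust=FALSE, a replicate block, counts divided by 4, adjusted p under 0.01, and each library left out.

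The members and gene lists were chosen with earlier results of these data known. Named genes are the 10 members, in each list the 3 tested genes with the smallest p, and the 2 nearest genes to each member with at least 10 counts in 2 libraries. Others of a list (Osmr, Il6st, Il4ra, Met, Tnfrsf13b, Tnfrsf13c, Hgfac, Adam17, Il1b, Gata2 and Cebpb) were chosen for their role after their values were seen, as were the marker genes named. The bounds of Hgf without single libraries and the marker sums without their most abundant gene were added after seeing the data.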

Additional observations from a re-analysis of the deposited data

How the results depend on the processing

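By edgeR 2 genes were higher in B and 0 lower (585 at unadjusted p under 0.05), with 0 of the 10 members in either direction. DESeq2 called 491 higher and 104 lower with 2 members higher, and limma-voom 195 higher and 7 lower with 1 member higher. Leaving out single libraries gave 0 to 1 genes higher, and an adjusted p under 0.01 gave 0. The replicate block gave 0 genes higher. Same-numbered libraries share only a number: their deviations from the set means correlated at 0.0280, -0.0241 and 0.0261, and only pair 1 correlated best with its own number. The causes of these shifts were not tested. Without single libraries Osm ran from -2.04 to 6.87, Csf1 from -1.39 to 8, Mif from -0.24 to 0.97 and Maf from -7.01 to 2.30. Directions turned for Osm without B replicate 1 (-2.04), A replicate 1 (-0.53) and A replicate 3 (-0.52), for Csf1 without B replicate 2 (-1.39), for Mif without B replicate 1 (-0.24), and for Maf without A replicate 2 (2.30) and with the replicate block (0.57). Tnfsf13b ran from 9.54 to 14.31 and Hgf from 9.46 to 13.51 over their 15 and 14 alternatives, with adjusted p of 6.93e-06 to 0.998 and 6.86e-06 to 0.998. The median of all genes was -0.06 with TMM, -0.16 with RLE and 0.05 with library size alone, but 0.28 with no filter, 0.48 with the replicate block and 0.87 with limma-voom, whose differences and calls for higher genes are to be read against that shift. The stricter filter left no value for Hgf, Csf1 and Tgfb1. A count of 0 cannot be told from a level of up to 3 counts per library.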
